A study of Mus musculus with 5 samples.

Results

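The genes described here are those of ATF4 and of the unfolded protein response, measured in group 2 innate lymphoid cells (ILC2s) of mouse lung. They were taken from a list of 34 named genes: per gene the probe set that the platform annotation pairs with that symbol alone was used, and where there were several, the one with the highest mean over the 5 arrays. This gave 33 of the 34 genes, out of 22180 genes in all. The probe set of Pdia4, a disulfide isomerase gene, also carries a second symbol in the annotation and was not used. Cells came from lungs of naive adult male mice, 2 arrays from IL-33 knockout mice and 3 from wild-type mice, and the labels call them biological replicates. Which allele, strain or exact age was used is not given in the sources used here. Because IL-33 is missing from the whole animal, a difference cannot be assigned to the ILC2s themselves by this design.

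The unfolded protein response is how a cell reacts when proteins fail to fold in the endoplasmic reticulum (ER). It starts from the sensors PERK, IRE1 and ATF6 in the ER membrane. PERK, like the amino acid sensor GCN2, phosphorylates the translation factor eIF2alpha, which lowers general translation and raises that of ATF4, a transcription factor for amino acid supply and for stress regulators such as CHOP. IRE1 cuts Xbp1 mRNA so that its spliced form encodes an active factor for ER translocation, folding and degradation, and ATF6 travels to the Golgi, is cut there and induces ER chaperones. ILC2s secrete cytokines through this compartment. The 33 genes were sorted by known role into an ATF4 arm of 10, an ATF6 arm of 13 and an XBP1 arm of 10. Many chaperone genes answer to both ATF6 and XBP1, so the last borders are conventional. Splicing of Xbp1, translation of Atf4 and cleavage of ATF6 are not seen by these probe sets, which read mRNA.

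Both knockout arrays stood apart from the rest in ways that touch the results. Between them, Pearson's r across probe sets was 0.893, against 0.929 to 0.933 among wild-type arrays. Knockout replicate 1 carried airway transcripts, with the secretory gene Bpifa1 at 8.52 log2 units. Bpifa1 read 3.22 in knockout replicate 2, and the wild-type arrays lay between 2.85 and 3.22. Epithelial transcripts were not confined to replicate 1. Scgb1a1 read 8.81 and 5.93 in knockout arrays, against 3.62 to 5.01 in wild type, and Epcam 4.51 and 4.99, against 3.88 to 4.13. Of 14 epithelial genes tested, 11 were above 0 in difference, knockout minus wild type, and 3 below. Knockout replicate 2, labelled male like the others, had an Xist signal of 7.91; knockout replicate 1 had 3.10, and the wild-type arrays lay between 2.35 and 3.10. Its Y-linked genes Kdm5d and Eif2s3y read 4.79 and 6.14, below the other 4 arrays, and Uty 7.17, above them. Il33, the targeted gene, read 3.79 and 3.95 in knockout arrays, against 3.32 to 3.39 in wild type. It was among the dimmest 25% of genes, which were left out of the test. The probes' place relative to the deletion is also not known here, so Il33 does not check the genotype. For these reasons the genes that the results turn on are given on every array, and with each knockout array alone.

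Promoters of several members carry the sequence elements by which these pathways are known to work, and the matches are shown here so that the genes can be described by sequence as well as by arm. The RefSeq promoter table of the mouse assembly GRCm38.p6 gives windows from 250 bases before to 50 after each annotated transcript start, and it held 28 of the 33 genes among 27025 genes in all. Searched on both strands were the ER stress element ERSE (CCAAT, any 9 bases, then CCACG), its variant ERSE-II (ATTGG, any 1 base, then CCACG), the XBP1 core element UPRE (TGACGTGG) and the ATF4 element CARE (TGATGNAAT or TGATGCAAN). The CARE forms can match the same bases and were then counted once. ERSE was found for 8 of the 28 members and for 0.137% of all genes, 37 of 27025. ERSE-II was found for 2 members and 12 genes in all (0.0444%), and CARE for 2 members and 510 genes in all (1.89%). No member held UPRE, which 0.714% of genes did. A match is a run of letters and not a measured binding site, and the ones with ERSE were, in the direction of the element with its fixed letters in capitals:
Calr at chr8:84847075-84847093: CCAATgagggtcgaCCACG
Canx at chr11:50325800-50325818: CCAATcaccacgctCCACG
Creld2 at chr15:88819520-88819538: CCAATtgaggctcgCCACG
Dnajc3 at chr14:118937827-118937845: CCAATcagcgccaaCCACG
Hsp90b1 at chr10:86705533-86705551: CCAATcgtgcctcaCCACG
Hsp90b1 at chr10:86705638-86705656: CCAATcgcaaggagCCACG
Hspa5 at chr2:34772025-34772043: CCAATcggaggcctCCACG
Pdia6 at chr12:17266491-17266509: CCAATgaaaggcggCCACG
Syvn1 at chr19:6046532-6046550: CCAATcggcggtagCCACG

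Of the ERSE matches, those of Canx, Dnajc3, Hspa5, Pdia6 and Syvn1 and the more distant one of Hsp90b1 lay on the gene's strand, and those of Calr, Creld2 and the nearer one of Hsp90b1 on the other. They began between 212 and 44 bases before the annotated start. The ERSE-II match of Herpud1, ATTGGgCCACG at chr8:94386377-94386387, began 52 bases before the start, and that of Dnajb11 lay after it.

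**Figure D1:**
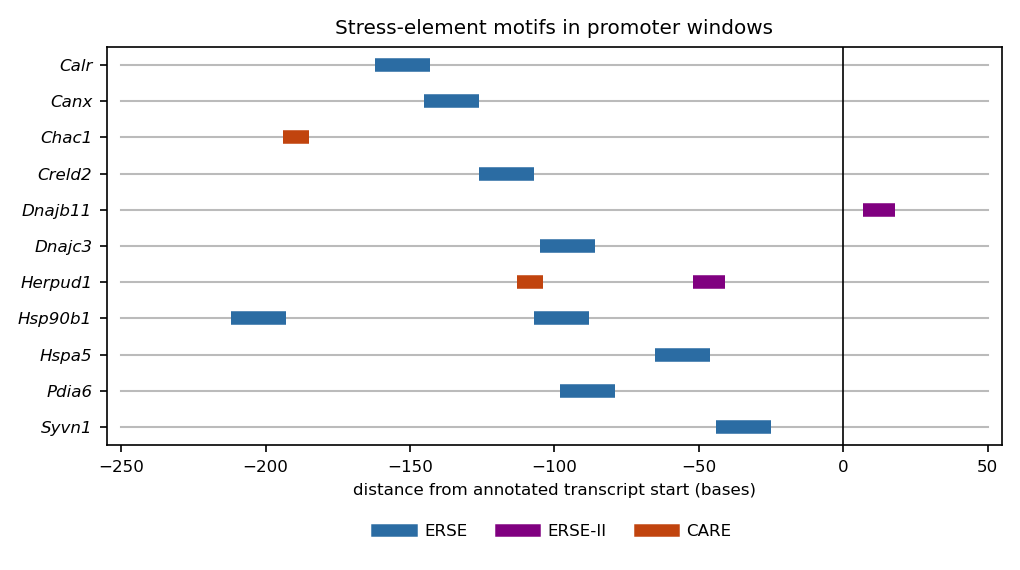
Positions of the motif matches in the promoter windows of the 11 members that hold any. The x axis is the distance in bases from the annotated transcript start (vertical line); each grey line is 1 gene's window and each bar 1 match, coloured by motif. ERSE matches lie before the start in all 8 genes that hold them, and the ERSE-II match of Dnajb11 lies after it.

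Printed in full are the 250 bases before the start of 4 genes: Chac1, which holds CARE and had a higher signal in both knockout arrays; Creld2, which holds ERSE and had a lower one; Hspa5, the classical ERSE gene; and Herpud1, which holds ERSE-II and CARE. Chac1 and Creld2 were picked for their differences. Capitals mark the fixed letters of the matches; elements on the opposite strand read as their complement, such as TTGCATCA for CARE and CGTGG with ATTGG for ERSE.
Chac1 at chr2:119350992-119351241, plus strand: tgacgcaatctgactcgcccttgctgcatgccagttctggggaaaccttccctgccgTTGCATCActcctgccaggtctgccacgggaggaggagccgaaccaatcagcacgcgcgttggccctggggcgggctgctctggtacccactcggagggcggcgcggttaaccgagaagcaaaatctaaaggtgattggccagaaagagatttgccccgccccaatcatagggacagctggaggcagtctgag
Creld2 at chr15:88819396-88819645, plus strand: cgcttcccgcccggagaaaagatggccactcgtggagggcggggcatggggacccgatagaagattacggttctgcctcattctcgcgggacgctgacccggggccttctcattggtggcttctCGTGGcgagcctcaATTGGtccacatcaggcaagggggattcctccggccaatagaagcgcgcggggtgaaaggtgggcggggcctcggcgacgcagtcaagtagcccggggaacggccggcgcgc
Hspa5 at chr2:34771840-34772089, plus strand: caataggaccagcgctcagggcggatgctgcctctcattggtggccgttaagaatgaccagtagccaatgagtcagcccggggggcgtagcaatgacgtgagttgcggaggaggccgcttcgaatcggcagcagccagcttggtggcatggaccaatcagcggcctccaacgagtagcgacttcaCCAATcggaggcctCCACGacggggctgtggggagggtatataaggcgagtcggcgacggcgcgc
Herpud1 at chr8:94386179-94386428, plus strand: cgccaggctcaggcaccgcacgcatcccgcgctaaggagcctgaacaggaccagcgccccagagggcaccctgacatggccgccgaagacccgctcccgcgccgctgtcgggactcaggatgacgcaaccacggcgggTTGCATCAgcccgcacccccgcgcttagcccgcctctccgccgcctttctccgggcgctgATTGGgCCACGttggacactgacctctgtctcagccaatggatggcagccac

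Of the 33 genes, 5 had higher and 2 had lower signals in both knockout arrays than in all 3 wild-type arrays. The higher ones were Atf4, Chac1, Trib3, Hyou1 and Dnajb9, and the lower ones Creld2 and Selenos. Together they are 21.2% of the members, and the same held for 18.0% of all 16635 genes tested, 11.6% upward and 6.32% downward, so the share lies near the background. No gene passed an adjusted p of 0.05 (limma, Benjamini-Hochberg over all genes tested; 0% called), member or not, and the lowest adjusted p of a member was 0.402, for Atf4. At an unadjusted p below 0.05 there were 5 members, Atf4, Dnajb9, Chac1, Creld2 and Selenos (15.2%), against 7.64% of all genes tested. Of these, 3 were higher, against a background of 5.05%, and 2 lower, against 2.59%. The median difference over the members was 0.012 log2 units, knockout minus wild type, and 0.039 over all genes tested. Scaling shifted the count of genes without overlap: quantile normalization gave 6 higher and 5 lower, against 21.1% and 9.61% of all genes under that scaling, and median centring 5 higher and 6 lower, against 13.2% and 9.95%. The 7 named genes were among them under both scalings. All 33 passed the filter that left out the 25% of genes with the lowest mean.

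**Figure D2:**
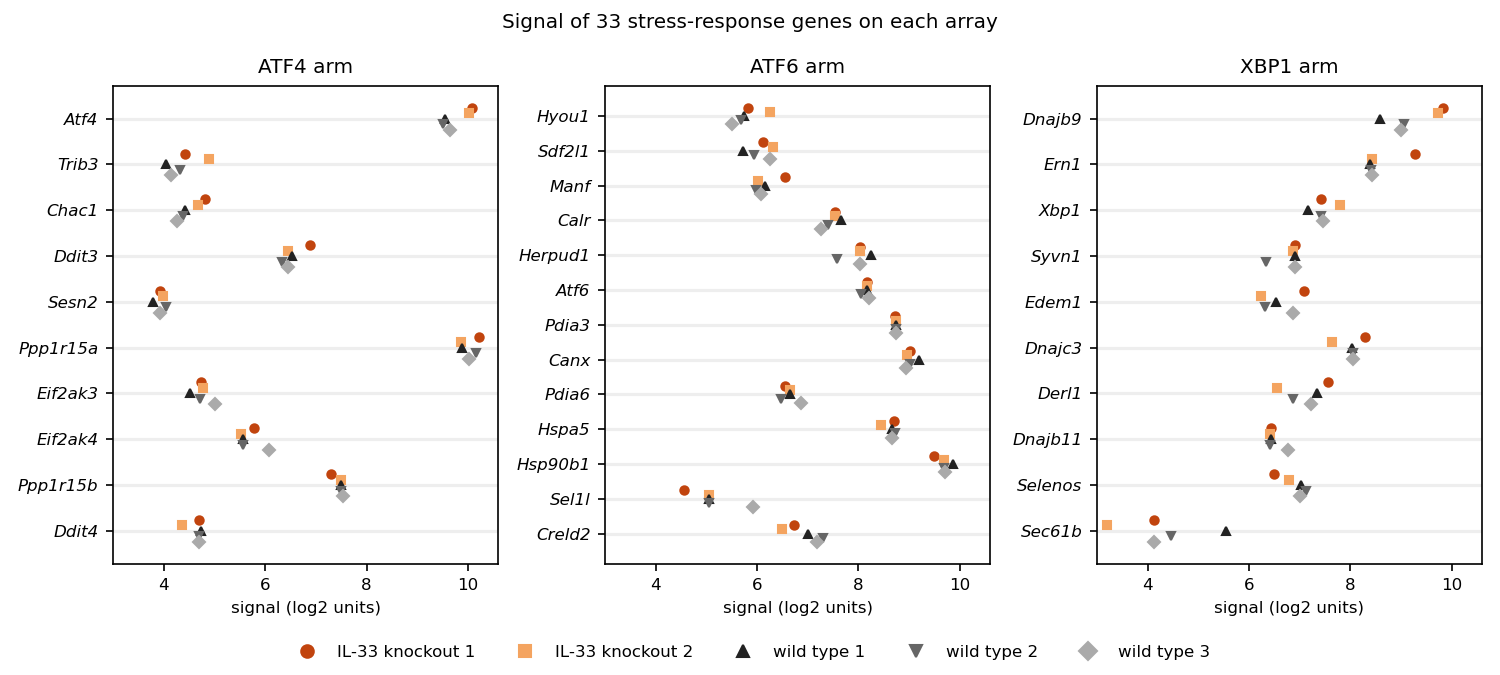
Signal of each of the 33 genes on each array in log2 units (x axis), in a panel per arm, with genes ordered by their difference. Each marker is 1 array; IL-33 knockout arrays are in orange and wild-type arrays in grey to black. The knockout markers of Atf4, Chac1, Trib3, Hyou1 and Dnajb9 lie right of all wild-type markers, those of Creld2 and Selenos left of them.

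In the ATF4 arm, the factor itself and a pair of its classical targets had higher signals in both knockout arrays. Atf4 read 10.09 and 10.02 in knockout arrays, against 9.54, 9.50 and 9.64 in wild type. The gap between the groups was wider than the spread within either, and the averages were 10.05 ± 0.05 (SD, n = 2) in knockout and 9.56 ± 0.07 (SD, n = 3) in wild type. This is a 1.41-fold difference, 0.49 on the log2 scale (SE 0.064, 95% confidence interval 0.31 to 0.67), with an adjusted p of 0.402 by limma. Each knockout array alone lay 0.52 and 0.46 above the wild-type mean. Chac1, an enzyme that degrades glutathione and is a target of ATF4 with CHOP, read 4.82 and 4.67 in knockout arrays, against 4.42, 4.39 and 4.26 in wild type. Its difference was 0.38 (SE 0.083, limma adjusted p 0.468), and replicates 1 and 2 alone lay 0.46 and 0.31 above the wild-type mean. Trib3, a pseudokinase induced by ATF4 that restrains it in turn, read 4.41 and 4.88 in knockout arrays, against 4.04, 4.32 and 4.13 in wild type. The lower knockout value of Trib3 was close to the highest wild-type value, and the difference of 0.48 had an SE of 0.19 (limma adjusted p 0.623), with 0.25 for replicate 1 alone and 0.72 for replicate 2. Both genes lie near the median gene (4.48 log2 units), and the files carry no detection call, so how far their signals lie above background is not known.

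The remaining ATF4 arm genes overlapped between the genotypes. Ddit3, the gene for CHOP, read 6.89 in knockout replicate 1, above every other array, and 6.46 in replicate 2, within the wild-type range of 6.34 to 6.53. The kinase genes Eif2ak3 (PERK) and Eif2ak4 (GCN2) differed by 0.0091 and -0.083, with confidence intervals of -0.47 to 0.48 and -0.69 to 0.52 on the log2 scale. For the phosphatase subunits that reverse eIF2alpha phosphorylation, Ppp1r15a (GADD34) and Ppp1r15b (CReP), the differences were 0.012 and -0.11. Ppp1r15a was abundant, at 10.21 and 9.87 in knockout arrays, against 9.89, 10.17 and 10.03 in wild type, with the knockout arrays on opposite sides of all wild-type arrays. Ddit4 (REDD1) and Sesn2, both restraints on mTORC1 signalling, differed by -0.18 and 0.036, and Sesn2 was the dimmest member, at 3.78 to 4.05 over all arrays. The arm had 3 of 10 genes without overlap, all higher, against 11.6% of all genes tested in that direction. Its median difference was 0.024. Leaving out an array moved that median between -0.044, without wild type replicate 1, and 0.12, without knockout replicate 2; it was 0.11 without wild type replicate 3 and 0.091 without wild type replicate 2.

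Most genes of the ATF6 arm encode ER chaperones and folding enzymes, and all but Hyou1 and Creld2 overlapped between the genotypes. Hspa5, which encodes the main ER chaperone BiP, read 8.70 and 8.45 in knockout arrays, against 8.67, 8.72 and 8.67 in wild type. Its difference of -0.11 on the log2 scale had a confidence interval of -0.37 to 0.15, with 0.013 for knockout replicate 1 alone and -0.24 for replicate 2. Wild type replicates 1 and 3 repeat the same value, so this interval may be too narrow. Hsp90b1, the ER member of the HSP90 family, read 9.50 and 9.68 in knockout arrays, against 9.87, 9.68 and 9.71 in wild type, a difference of -0.17 (interval -0.44 to 0.11). The lectin chaperone genes Calr and Canx and the isomerase genes Pdia3 and Pdia6 differed by 0.087, -0.057, -0.011 and -0.060. Atf6 itself differed by 0.029, with an interval of -0.16 to 0.21. Several of these genes repeat 1 value on many arrays, such as Pdia3, at 8.75 on 4 of 5 arrays, so their spread may be too small. Over the members, 15 of 33 had 5 distinct values (45.5%), against 36.4% of all genes tested.

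Hyou1, an ER chaperone that also serves as a nucleotide exchange factor for BiP, read 5.82 and 6.25 in knockout arrays, against 5.74, 5.69 and 5.51 in wild type. Replicate 1 exceeded the highest wild-type array by little, and the difference of 0.39 had an interval of -0.075 to 0.85, with 0.17 for replicate 1 alone and 0.60 for replicate 2. Creld2, an ER-resident stress-induced protein gene, went the other way, at 6.73 and 6.49 in knockout arrays, against 7.00, 7.30 and 7.19 in wild type. The groups did not overlap, the difference was -0.55 (SE 0.13, interval -0.92 to -0.18) and limma's adjusted p was 0.514. Taken alone, knockout replicates 1 and 2 lay at -0.43 and -0.67 from the wild-type mean. The cofactor genes Sdf2l1 and Manf differed by 0.25 and 0.22, the second through knockout replicate 1 alone, at 6.56, since replicate 2 at 6.03 lay within the wild-type range of 5.98 to 6.16. Herpud1 and Sel1l, both of ER-associated degradation, differed by 0.072 and -0.53. Sel1l was equal at 5.06 in knockout replicate 2 and in wild type replicates 1 and 2, with 4.56 in knockout replicate 1 and 5.91 in wild type replicate 3. The arm's median difference was -0.011, and -0.073 without wild type replicate 2.

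**Figure D3:**
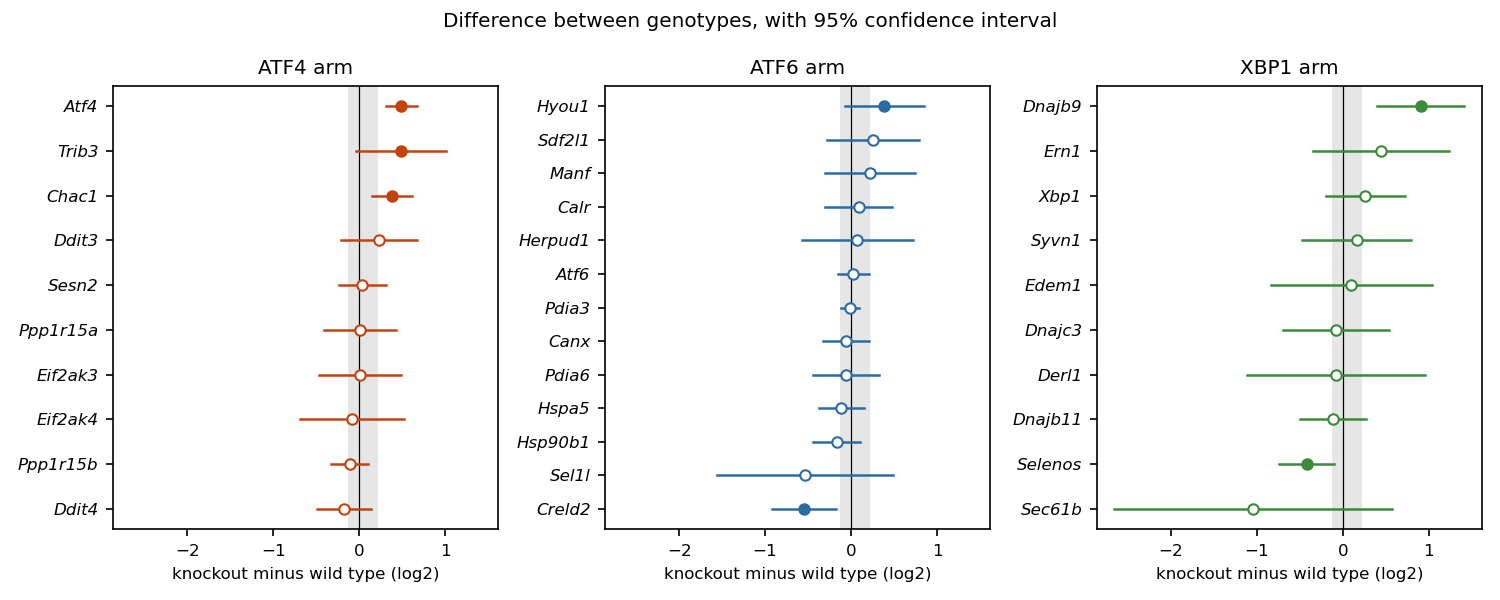
Difference of each gene in log2 units, knockout minus wild type, in a panel per arm. Lines are 95% confidence intervals from the limma fit (2 knockout and 3 wild-type arrays), filled points mark genes whose groups did not overlap, and the grey band is the middle of all genes tested, from the lower quartile of -0.12 to the upper of 0.21. The intervals of Atf4, Chac1, Dnajb9, Creld2 and Selenos leave out 0, before any adjustment for the number of genes.

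The XBP1 arm held the largest upward and the largest downward difference of the 33 genes. Dnajb9, the gene for the co-chaperone ERdj4, which binds IRE1 and restrains it, read 9.839 and 9.733 in knockout arrays, against 8.577, 9.067 and 8.997 in wild type. Both knockout arrays lay well above the highest wild-type array, by 0.96 and 0.85 over the wild-type mean. The averages of 9.79 ± 0.07 (SD, n = 2) in knockout and 8.88 ± 0.27 (SD, n = 3) in wild type make a 1.87-fold difference (log2 0.91, SE 0.18, interval 0.40 to 1.41, limma adjusted p 0.453). Its promoter window held none of the motifs searched. Xbp1 read 7.43 and 7.79 in knockout arrays, against 7.16, 7.43 and 7.46 in wild type, so the groups overlapped at a difference of 0.26 (interval -0.20 to 0.72). Selenos, a selenoprotein of the ER degradation machinery, read 6.49 and 6.79 in knockout arrays, against 7.03, 7.13 and 7.01 in wild type. It did not overlap, with a difference of -0.42 (SE 0.11, interval -0.74 to -0.099, limma adjusted p 0.541). Replicates 1 and 2 alone lay at -0.57 and -0.27, and a dim further probe set of the gene, at 2.13 to 2.25, differed by -0.018. Sec61b, a subunit of the translocation channel, had the widest difference, -1.04, and the widest interval, -2.66 to 0.57. It was dim, at 4.13 and 3.20 in knockout arrays, against 5.55, 4.45 and 4.13 in wild type, and its other probe set differed by 0.060.

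Several XBP1 arm genes were instead set apart by which knockout array was read. Ern1, the gene for IRE1, read 9.27 on the array of knockout replicate 1, but 8.42 in replicate 2, against 8.38, 8.40 and 8.42 in wild type. A single array thus carried the difference of 0.45: with replicate 1 as the only knockout array it was 0.87 (limma adjusted p 0.0316), and with replicate 2 as the only one it was 0.022 (limma adjusted p 0.859). Dnajc3, a co-chaperone of BiP that also inhibits PERK, read 8.29 and 7.63 in knockout arrays, against 8.04 in wild type replicate 1 and 8.05 in replicates 2 and 3. It passed in both fits with 1 knockout array, at 0.25 for replicate 1 (limma adjusted p 0.0497) and at -0.41 for replicate 2 (limma adjusted p 0.0202), in opposite directions. In those fits the lone knockout array is assumed to vary like wild type, and they called 401 and 1077 genes in all (2.41% and 6.47%). Edem1, which guides misfolded glycoproteins to degradation, read 7.09 and 6.24 in knockout arrays, against 6.53, 6.32 and 6.87 in wild type. Derl1, of the retrotranslocation channel, read 7.56 and 6.56 in knockout arrays, against 7.34, 6.86 and 7.23 in wild type. Like Ppp1r15a, these 3 genes lay above all wild-type arrays in replicate 1 and below all of them in replicate 2. That makes 4 of 33 members, and 5.93% of all genes tested did the same. That direction was seen first: counted in either direction, it was still 4 members, and 1596 of 16635 genes tested.

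Dnajb11, a co-chaperone gene, and Syvn1, the ubiquitin ligase of ER-associated degradation, differed by -0.11 and 0.16 with overlap of the groups. Averaged over its genes, the arm was highest in knockout replicate 1, at 7.35, and lowest in knockout replicate 2, at 6.97, and the wild-type arrays lay between 7.05 and 7.20. The same order was found in the means of 3 other lists, which are not fully separate, as the first and last both hold Atf3. These were further ATF4 pathway genes, at 5.26 and 4.89 in knockout arrays, against 5.10 to 5.13 in wild type; further ER quality control genes, at 6.46 and 6.24, against 6.25 to 6.33 in wild type; and immediate early genes, at 9.40 and 8.80, against 9.08 to 9.10 in wild type. What these 3 lists share with the XBP1 arm was not tested. That order was not found in the ATF4 arm, at 6.28 and 6.20 in knockout arrays, against 6.05 to 6.17 in wild type. Nor was it in the ATF6 arm, at 7.39 and 7.41, against 7.36 to 7.49 in wild type. The other marker lists did not show it either. Over all genes tested the means were 5.42 and 5.37 in knockout arrays, against 5.35 to 5.38 in wild type. The median difference of the XBP1 arm was 0.0076; with replicate 2 as the only knockout array it was -0.20 and with replicate 1 it was 0.21.

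**Figure D4:**
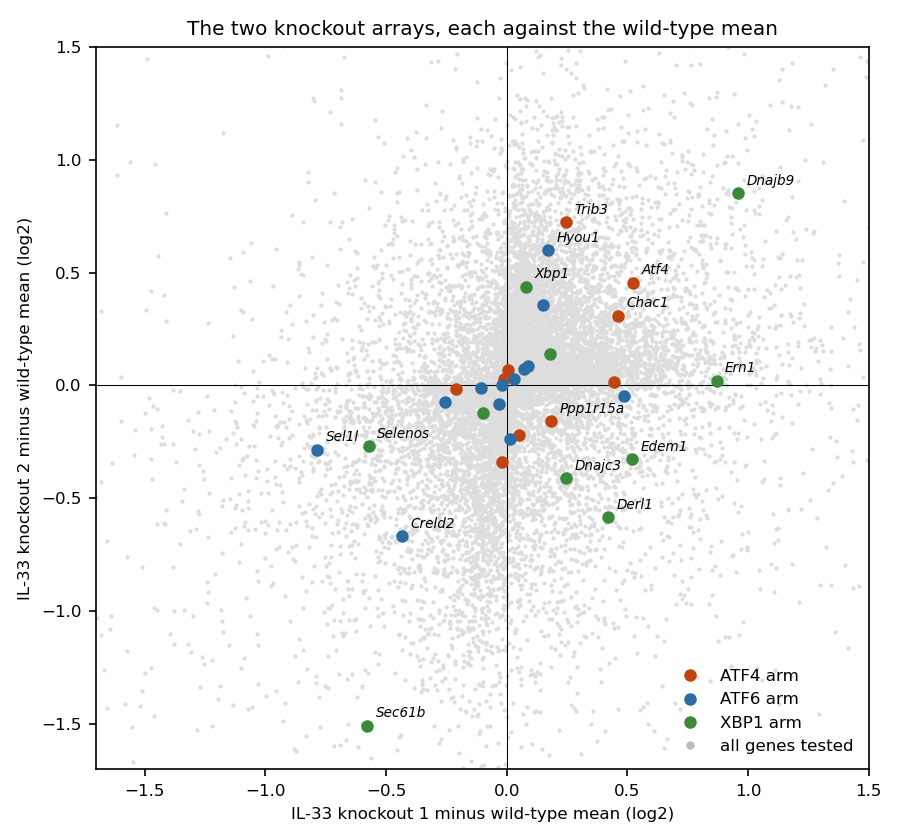
Each knockout array against the mean of the 3 wild-type arrays, in log2 units, replicate 1 on the x axis and replicate 2 on the y axis. Coloured points are the 33 genes by arm and grey points all 16635 genes tested (those beyond the frame are not drawn); both axes share the wild-type mean. Atf4, Chac1, Trib3, Hyou1 and Dnajb9 lie at the upper right, while Dnajc3, Edem1, Derl1 and Ppp1r15a lie to the right and below 0.

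Across the arms, the levels and the differences can be set side by side only as descriptions. Median signals were 5.23 log2 units in the ATF4 arm, 7.48 in the ATF6 arm and 7.00 in the XBP1 arm, and 5.02 over all genes tested. A probe set's signal depends on its probes as well as on the mRNA, so no order of expression between genes is drawn from them. The ATF4 arm had 7 genes above 0 in difference and 3 below, the ATF6 arm 6 and 7, and the XBP1 arm 5 and 5. Of the 16635 genes tested, 9738 were above 0. Genes without overlap were 3 of 10, 2 of 13 and 2 of 10 in the ATF4, ATF6 and XBP1 arms, against 18.0% of all genes tested.

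Sorted by promoter rather than by arm, the 10 members that hold ERSE or ERSE-II had differences from -0.55 for Creld2, the only one of them without overlap, to 0.16 for Syvn1, with a median of -0.070 and 7 of 10 below 0. The 18 members with a promoter window and neither element ran from -1.04 for Sec61b to 0.91 for Dnajb9, with a median of 0.066 and 12 of 18 above 0. Of the 7 genes without overlap, Creld2 held ERSE, Hyou1 had no window, and Atf4, Chac1, Trib3, Dnajb9 and Selenos held neither element, like 18 of the 28 members with a window. This grouping was made after the differences were known, and the gap between the groups was not tested.

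Other genes of the ATF4 pathway and of ER quality control showed no shared direction. Of 19 further ATF4 pathway genes listed, 14 were tested; none passed limma's adjusted p, 8 were above 0 in difference, and the median was 0.059. Cebpb, a transcription factor gene whose product also pairs with ATF4, read 5.53 and 5.24 in knockout arrays, against 4.88, 4.43 and 4.58 in wild type (difference 0.76, SE 0.18, limma adjusted p 0.514). Atf5, a further ATF4-like factor, and the transaminase gene Gpt2 were also higher without overlap, by 0.20 and 0.45. With 1 array left out these ran from 0.11 to 0.27 and from 0.21 to 0.68, the last of these without knockout replicate 1. Eif2ak1, the heme-regulated eIF2alpha kinase, was lower without overlap, at 5.54 and 4.77 in knockout arrays, against 5.76, 5.91 and 5.98 in wild type. Eif4ebp1, a translation repressor, read 6.20 and 4.63 in knockout arrays, against 6.56, 6.24 and 6.24 in wild type. Knockout replicate 2 carried most of both differences: they were -0.73 and -0.93, but -0.35 and -0.14 without it and -1.12 and -1.71 without knockout replicate 1. Atf3 read 9.98 in knockout replicate 1 and 8.17 in replicate 2, above and below the wild-type range of 8.47 to 9.25. Asns, a standard ATF4 target, repeated 4.09 in knockout replicate 1 and all wild-type arrays and read 4.06 in knockout replicate 2. It was dimmer than the median gene (4.48), so whether its probe set detects the mRNA is not known. Of 35 ER quality control genes, none passed, 20 were above 0, and the median was 0.045. Without overlap were 5 of these 35 (14.3%) and 5 of the 14 ATF4 pathway genes (35.7%), against 18.0% of all genes tested. In the ER quality control list they were Sec61g, of the translocation channel, and Edem2, higher by 0.58 and 0.18, and Os9, Pdia5 and Ddrgk1, at -0.063, -0.20 and -0.30. Os9 repeated 8.17 on all 3 wild-type arrays and Pdia5 3.64 in both knockout arrays, so their spread may be too small. With 1 array left out, Sec61g ran from 0.34 to 0.81, Edem2 from 0.062 to 0.25, Os9 from -0.093 to -0.032, Pdia5 from -0.26 to -0.14 and Ddrgk1 from -0.53 to -0.082. Cebpb was named by a rule that itself uses the difference, and the others after their values were seen.

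Markers of other cells moved in part with the genotype. Beside the counts that follow, 11.6% of all genes tested were higher and 6.32% lower without overlap. Of ILC2 transcripts, Gata3 read 7.89 to 8.50, Il7r 11.26 to 11.45 and Klrg1 8.51 to 9.55 over the 5 arrays, genes that some T cells express too. The mean of 14 ILC2 genes was 8.53 and 8.62 in knockout arrays, against 8.63 to 8.79 in wild type, with 3 higher without overlap, Icos by 1.27 among them, and 3 lower, Ptprc, Il17rb and Nmur1. The mean of 6 T cell genes was 5.25 and 5.21 in knockout arrays, against 5.28 to 5.33 in wild type, and Cd3g of that list read 9.10 to 9.74 over all arrays. The other genes of that list were dimmer on every array, reaching at most 5.86, for Cd3e in wild type replicate 3. The mean of 17 lung epithelium genes was 5.24 and 4.57 in knockout arrays, against 4.26 to 4.32 in wild type, and 4 of the 14 tested were higher without overlap. For 12 endothelial genes it was 5.17 and 5.36 in knockout arrays, against 4.99 to 5.09 in wild type; of the 10 tested, 4 were higher and 2 lower without overlap. Among these, Cdh5 and Cldn5, of endothelial junctions, were higher by 1.44 and 1.59, more than any of the 33 genes. The 2 lower ones were Calcrl, at -0.92, and Kdr, at -0.15. Pecam1, Tie1 and Vwf differed by only 0.090, 0.086 and 0.066, and the median difference of the 10 endothelial genes tested was 0.12. Epithelial and endothelial cells express ATF4 and ER chaperone genes too; their part in the differences of Atf4, Chac1, Trib3, Hyou1 and Dnajb9 was not tested. For 10 B and plasma cell genes the mean was 4.31 and 4.40 in knockout arrays, with wild-type arrays at 4.28 to 4.34. None of the 8 tested was without overlap. Plasma cells are known for a large ER, and their part in the differences of the 33 genes was not tested either. The single markers in these lists were named after their values were seen. In such bulk arrays a change in the mix of cells and a change of RNA per cell cannot be told apart.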

How the data were processed

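Total RNA of lung ILC2s was extracted with Trizol and biotin-labelled, per the labels' protocols. The authors deposited log2 signals per probe set; per the submitters' processing notes, they used RMA in Affymetrix Expression Console. Versions, settings and genome build are not given in the sources used here. Usual RMA equalises the arrays, so a shift common to all transcripts is not visible. Precision is limited by the number of arrays.

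Of 41345 probe sets, 23521 had 1 symbol, 1814 several and 16010 none; symbols were updated through gene identifiers to RefSeq (GRCm38.p6), where 23328 were found. Genotypes were compared on the log2 scale with limma 3.58.1 in R 4.3.3 (lmFit, eBayes, Benjamini-Hochberg adjustment over 16635 genes, no block), after leaving out the dimmest 25% of 22180 genes. No permutation p is printed, since 3 against 2 arrays allow no value under 0.1. The fit was run on simulated arrays with known changes and independent normal noise. Those arrays lack the repeated values seen here, so that run does not show how the fit handles them. The labels call the replicates biological and do not say whether each is 1 animal or a pool. The named genes are all 34 members, other pathway genes without overlap at an unadjusted p below 0.05, marker list means, Il33 and sex check genes; other pathway genes and single markers in the text lie outside this rule and were chosen after their values were seen. Members and lists were chosen with earlier results of these data known. Alternatives covered the dim-gene filter, probe sets, scaling, variance model, array weights, the replicate block and each array left out.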

Additional observations from a re-analysis of the deposited data

How the results depend on the processing

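Of 33 members, 17 kept the sign of their difference under every alternative run (13, but 12 for Trib3 and Sec61b), Atf4, Chac1, Trib3, Hyou1, Dnajb9, Creld2 and Selenos among them. These named genes are the ones without overlap, so leaving out an array, array weights or the replicate block could not reverse their sign. The dim-gene filter and the variance model leave a difference unchanged. Only scaling, and for Selenos the averaging of probe sets, could have reversed it. Pdia3 came to 0 without knockout replicate 1, and 15 members changed sign. Leaving out 1 array at a time, the ranges of the genes that changed sign were -0.11 to 0.14 (Eif2ak3), -0.22 to 0.086 (Eif2ak4), -0.16 to 0.18 (Ppp1r15a), -0.031 to 0.10 (Sesn2), -0.018 to 0.061 (Atf6), -0.24 to 0.013 (Hspa5), -0.045 to 0.49 (Manf), -0.15 to 0.041 (Pdia6), -0.11 to 0.015 (Canx), -0.12 to 0.22 (Herpud1), -0.18 to 0.0045 (Dnajb11), -0.41 to 0.25 (Dnajc3), -0.33 to 0.52 (Edem1), -0.034 to 0.26 (Syvn1) and -0.58 to 0.42 (Derl1). Quantile normalization also turned Ppp1r15a to -0.050 and Atf6 to -0.013, median centring turned Eif2ak3 to -0.0016, and the replicate block turned Eif2ak4 to 0.086, Pdia6 to 0.041 and Dnajb11 to 0.0045.

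Genes passing limma's threshold numbered 0 under the 8 alternatives that kept every array and 0 to 1077 with 1 array left out, where only the fits with a lone knockout array called any. At an unadjusted p below 0.05 there were 1271. With 1 array left out, median differences ran from -0.044 to 0.12 (ATF4 arm), -0.073 to 0.015 (ATF6 arm), -0.20 to 0.21 (XBP1 arm), -0.071 to 0.089 (other ATF4 pathway), -0.061 to 0.13 (other ER quality control), -0.11 to -0.0096 (ERSE or ERSE-II) and 0.020 to 0.19 (neither element), and members without overlap from 5 to 12 higher and 2 to 10 lower. The 12 came without knockout replicate 2, where 31.1% of all genes were higher, and the 10 without knockout replicate 1, where 23.7% were lower; a lone array separates from wild type more often. Without wild type replicate 3, 8 were higher (15.8% of all genes), and 4 were lower without wild type replicate 2 (9.26%) and 6 without knockout replicate 2 (16.7%). Quantile normalization gave a lower count of 5 (9.61% of all genes), and median centring 6 (9.95%). The replicate block moved the ATF4 arm's median to 0.11 and that of members with neither element to 0.19. The genotypes share only replicate numbers, with nothing said of a shared litter or day, so the block is given here only. Same-numbered arrays' deviations correlated at -0.045 and 0.12 across genes. The deviations of the 2 knockout arrays mirror each other by construction, so these values do not settle whether same-numbered arrays belong together. Causes were not tested. Without detection calls, how many members lie above background is not known.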
